A study of Solanum lycopersicum with 24 samples.

Results

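The chlorophyll a/b-binding (CAB) genes of the clusters on tomato chromosomes 2 and 3 were followed in gland cells of leaf type VI trichomes. The members are 10 loci taken by their locus number, 6 on chromosome 2 and 4 on chromosome 3, out of 34725 gene models in the deposited tables. All 10 were found, and the chromosome is read from the locus number. They were counted in the af mutant and in the complemented lines CHI4 and CHI9, which the labels call complemented line #4 and #9. Per the labels, every plant grew in potted soil in a growth chamber for 5 weeks, and each genotype was collected at 4 sampling times, numbered 1 to 4. From general knowledge, not from the labels, af is defective in chalcone isomerase, and complementation put that enzyme back. The labels give no promoter for the introduced gene, no wild type and no number of plants per collection, so each line may be 1 transformation event. The collections are known by number only, although the names under which the counts were deposited carry tokens that read as dates in March for collections 1 and 2 and in May for 3 and 4.

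CAB proteins are made from nuclear genes, imported into the chloroplast, and there bind chlorophyll and carotenoids in the antenna that passes light energy to the photosystems. In tomato many of their genes lie in tandem arrays of closely similar copies, and their transcripts are among those that follow light and the state of the chloroplast most closely. Gland cells of tomato type VI trichomes hold chloroplasts of their own, so CAB transcripts are not foreign to them. The RefSeq gene table used here (assembly SLM_r2.1) lists the symbols Cab-1A, Cab-1D and CAB1B on chromosome 2 and Cab-3C and CAB11 on chromosome 3. It pairs none of them with a locus number, so the loci are named by number alone.

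Total gene counts of the 12 libraries had a median of 39.4 M, the lowest being 8.99 M in CHI9 replicate 2 and the highest 70.9 M in af replicate 1. The ratio of lane 2 to lane 1 was 0.450 in af replicate 4 and 0.982 to 1.00 elsewhere. The chi-square between lanes per degree of freedom, over genes with at least 10 counts, was 8.15 in af replicate 4, 5.69 in CHI4 replicate 4 and at most 2.21 in any other library. The locus taken from general knowledge as chalcone isomerase, Solyc05g010320, had 211 to 339.9 CPM in af (counts per M gene counts, scaled between libraries by the TMM method). In the lines it had 418 to 1168 CPM, so no library went against its label on that reading. A list of 6 loci recorded from general knowledge as type VI gland genes summed to 3737 to 4864 CPM in af and 16588 to 22782 CPM in the lines, with 0 of the 6 at 0 in all libraries. Of these 6 loci, all tested, 4 fell and 1 rose in af, the latter by 0.99 on the log2 scale. A list of 5 loci recorded for the acylsugar cells of other trichomes summed to 31.5 to 48.3 CPM in af and 71.8 to 131 CPM in the lines.

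Nearly all counts of the clusters came from 1 locus each. Solyc03g005760 held 82.6% to 94.9% of the counts of the 4 loci on chromosome 3, and Solyc02g070940 held 98.02% to 99.8% of those of the 6 loci on chromosome 2. Solyc03g005770 and Solyc03g005780 were counted in every library at lower levels, and these 4 loci averaged at least 5 CPM over all libraries. The other 6 loci together took 0.102% to 1.08% of the members' counts in a library. Copies this similar share reads, and reads with several alignments were kept apart from the gene counts by the authors' counting. The split between copies is therefore uncertain, and levels are not compared between loci, for which no length is given. Reads with several alignments made up 5.11% to 7.56% of all entries in af and 4.68% to 6.16% in the lines. Reads that overlapped more than 1 gene model made up between 3.67% and 5.39% in af, against 5.13% to 6.68% for the lines. On that share 3 of the 4 af libraries lay below all line libraries. The part of either in the values below was not tested.

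Solyc03g005760, the leading CAB locus of chromosome 3, had 131, 89.1, 54.6 and 79.4 CPM in af replicates 1 to 4. In CHI4 replicates 1 to 4 it had 307, 267, 259.8 and 218 CPM, and in CHI9 replicates 1 to 4 it had 271, 321, 278 and 271 CPM. Every af library was thus below every line library, and af replicate 1 was the highest of af. The af mean was 88.6 ± 31.9 CPM (SD, n = 4), the CHI4 mean 263 ± 36.5 CPM (SD, n = 4) and the CHI9 mean 285 ± 23.9 CPM (SD, n = 4). Against the mean of the lines it fell by 1.63 on the log2 scale in af, or 3.09-fold (SE 0.185, edgeR adjusted p = 2.43e-06).

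Solyc02g070940, the leading CAB locus of chromosome 2, had 117, 136, 88.0 and 101 CPM in af replicates 1 to 4. The CHI4 replicates 1 to 4 held 261, 342, 329.7 and 457 CPM, and the CHI9 replicates 1 to 4 held 287, 339.7, 323 and 409 CPM. The groups did not overlap, with replicate 4 the highest in both lines while replicate 3 was the lowest in af. Means (SD, n = 4 each) were 110.4 ± 20.7 CPM for af, 347 ± 81.2 for CHI4 and 339.5 ± 51.2 for CHI9. It fell by 1.64 on the log2 scale in af, or 3.11-fold (SE 0.169, edgeR adjusted p = 8.20e-07).

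**Figure D1:**
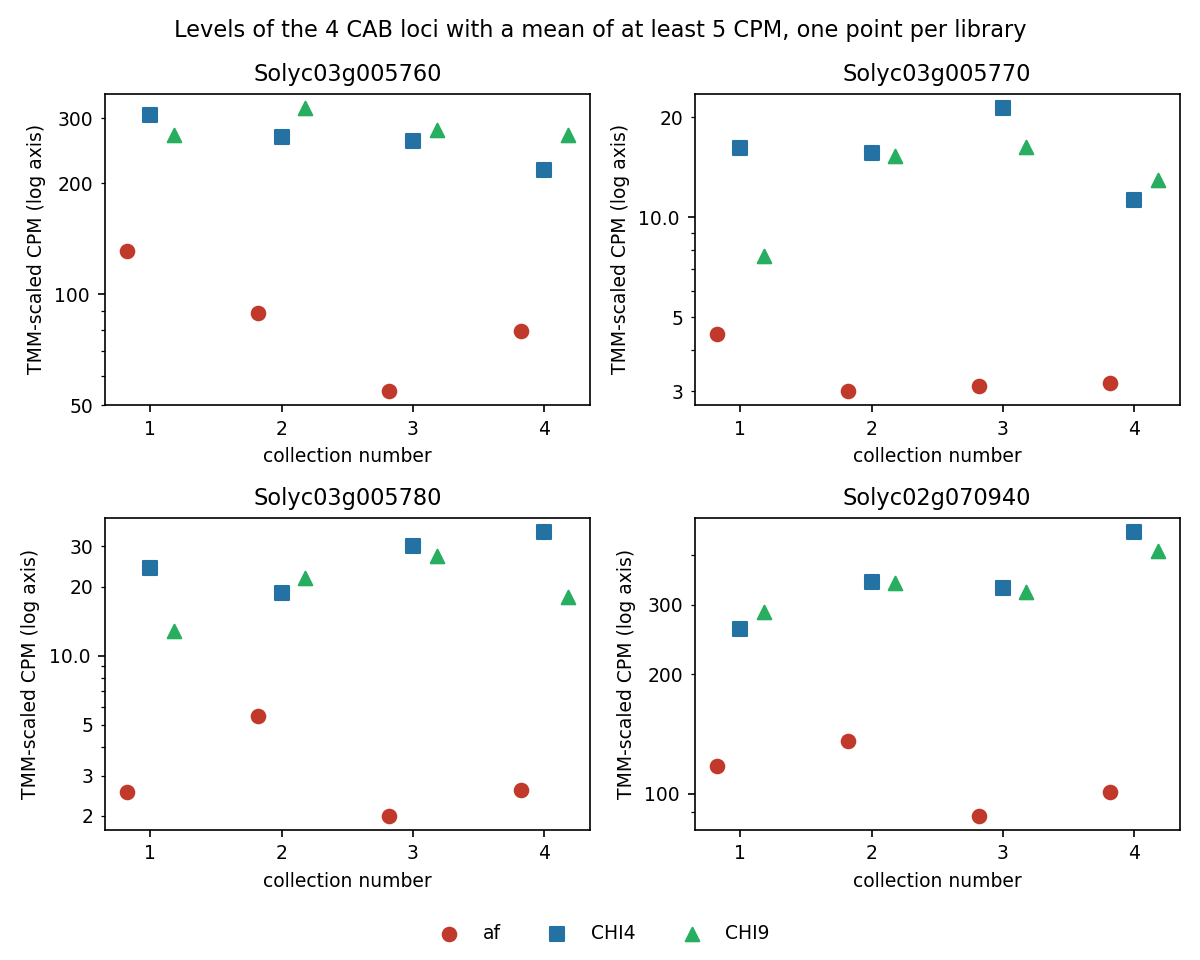
TMM-scaled CPM on a log axis against the collection number for the 4 more abundant CAB loci, 1 point per library (circles af, squares CHI4, triangles CHI9). In each panel the 4 af libraries lie below the 8 line libraries, at 54.6 to 131 CPM against 218 to 321 CPM for Solyc03g005760.

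Solyc03g005770, the locus next to the leading one by number, had 4.46, 3.00, 3.11 and 3.17 CPM in af replicates 1 to 4. In CHI4 it had 16.2, 15.6, 21.4 and 11.3 CPM, and in CHI9 7.67, 15.3, 16.3 and 12.9 CPM. Again af did not overlap with the lines, whose lowest library was CHI9 replicate 1. The locus fell by 2.07 on the log2 scale in af (SE 0.262, edgeR adjusted p = 8.29e-06).

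Solyc03g005780 showed the widest gap of the 4 loci, with 2.55, 5.46, 2.01 and 2.59 CPM in af replicates 1 to 4. In CHI4 it had 24.2, 18.8, 30.2 and 34.6 CPM, and in CHI9 12.8, 21.7, 27.1 and 17.9 CPM. The highest af library, replicate 2, was still below the lowest line library, CHI9 replicate 1. This locus fell by 2.87 on the log2 scale in af, or 7.29-fold (SE 0.297, edgeR adjusted p = 9.91e-07). These values rest on 66 to 344 counts in an af library and 184 to 1383 in a line library.

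The 6 other loci were scarce. A count of 0 allows a level of up to 0.0334 CPM in the deepest library (af replicate 1) and 0.354 CPM in the shallowest (CHI9 replicate 2), taking 3 counts as the limit and covering counting error only. Solyc02g071010 was the only one of the 6 with counts in all 12 libraries, 668 in all, at 0.184 to 1.76 CPM in af and 0.566 to 4.07 CPM in the lines. Its groups overlapped, and its highest libraries were CHI9 replicate 3 and CHI4 replicate 4. Solyc02g070950 had 175 counts in all and 0 in 3 of the line libraries (CHI4 replicates 1 and 2 and CHI9 replicate 1), while each af library held some, at 0.138 to 0.290 CPM. Solyc02g070990 had 138 counts, of which 38 came from af replicate 3 and 34 from the shallow CHI9 replicate 2, at 0.876 and 4.01 CPM. It had 0 counts in 5 libraries, 2 of af and 3 of the lines. In each of these 3 loci the af range lay within or across that of the lines.

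Solyc03g005790 had 42 counts over all libraries, 13 of them in af replicate 3 and 14 in CHI9 replicate 4. Solyc02g070970 had 36 counts, 18 of them in CHI4 replicate 4 and 4 in af (all in replicate 2). Solyc02g070980 had 38 counts, with 1 in af (replicate 4) and 37 in the lines, up to 15 in CHI9 replicate 4. These 3 loci are the members that did not pass the filter on low counts and were not tested. Of the 34 values of 5 counts or more among the scarce loci, 33 had counts in both lanes of their library.

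**Figure D2:**
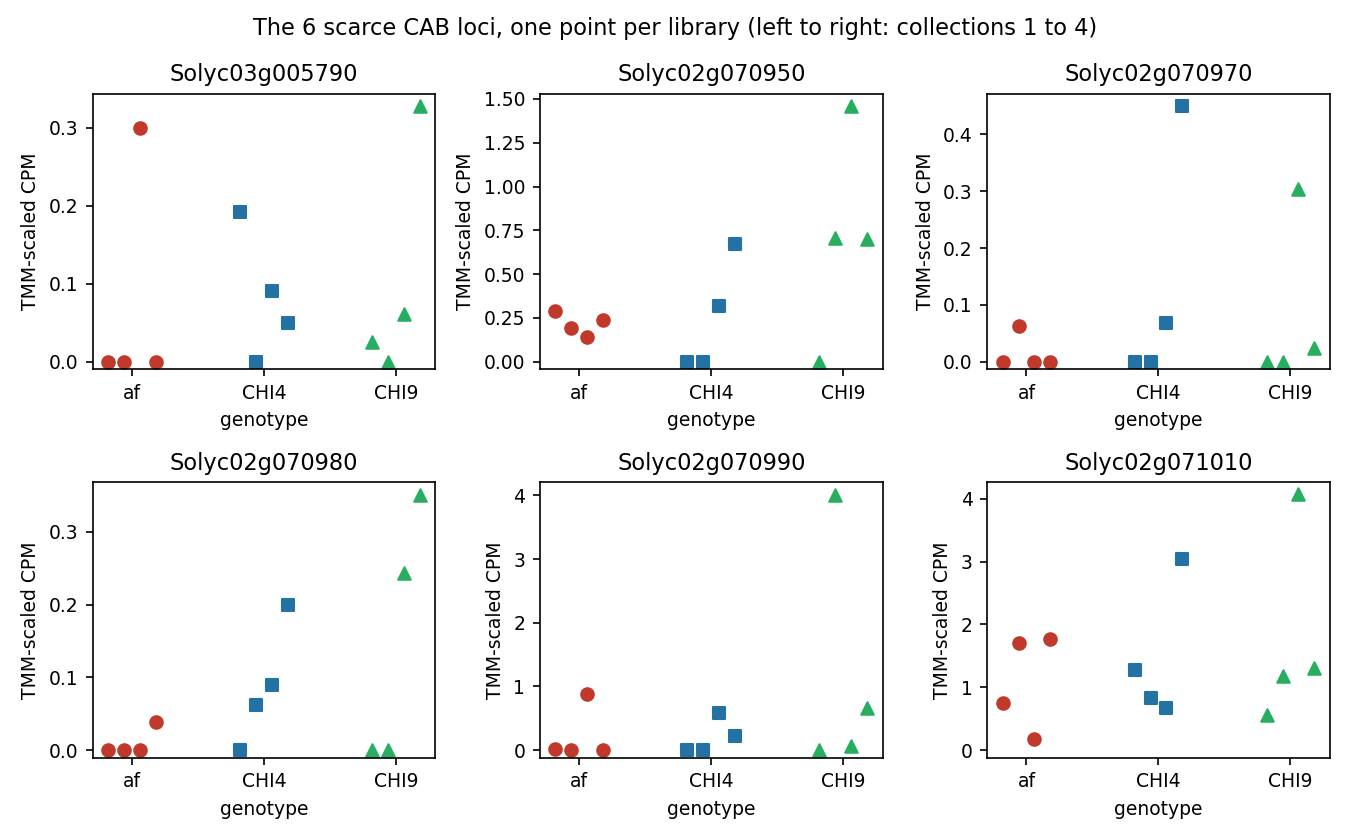
TMM-scaled CPM of the 6 scarce CAB loci by genotype on linear axes that differ between panels, 1 point per library, with collections 1 to 4 from left to right in each genotype. Most points lie under 2 CPM, and single libraries stand out, such as CHI9 replicate 2 at 4.01 CPM for Solyc02g070990.

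The main comparison of the design set af beside both lines, and 7 of the 10 members passed the filter and were tested. Of these 7, 4 fell in af and 0 rose, against 13.6% of all 18326 tested genes that were called lower. The 3 tested loci that were not called were Solyc02g071010, Solyc02g070950 and Solyc02g070990, with edgeR adjusted p of 0.597, 0.606 and 0.666. The 95% intervals of the latter pair ran from -3.53 to 1.57 and from -4.55 to 2.31 on the log2 scale. The intervals of all 3 loci, Solyc02g071010 included, take in differences as large as those of Solyc03g005760 and Solyc02g070940. A call with at least a 2-fold fall was made for the 4 loci and for 5.24% of all tested genes. Complete separation of the af libraries below the line libraries held for the same 4 loci and for 8.68% of all tested genes. Nothing in the labels says whether the libraries came from separate plants beyond the separate collections, so p-values measure the spread between these collections. In bulk RNA, fewer cells of a type and less transcript per cell cannot be told apart.

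Against each line on its own the same 4 loci were lower in af. Against CHI4, where 11.2% of the tested genes were called lower, the log2 differences were -1.57 for Solyc03g005760, -2.22 for Solyc03g005770, -3.09 for Solyc03g005780 and -1.65 for Solyc02g070940. Against CHI9, where 11.6% were called lower, they were -1.69, -1.92, -2.64 and -1.62 in that order. All 8 had an edgeR adjusted p of 7.61e-05 or less. Both comparisons use the same af libraries. A lower call against both lines was made for 9.1% of all tested genes.

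Between the complemented lines 0 of the 7 tested members were called in edgeR. DESeq2 called 0 as well, 0 had an unadjusted edgeR p under 0.05, and 0.0928% of all tested genes were called. For Solyc03g005760 the log2 difference of CHI9 from CHI4 was 0.12 with a 95% interval from -0.29 to 0.53. For Solyc02g070940 it was -0.03 with an interval from -0.41 to 0.34. The 2 less abundant loci had wider intervals, from -0.88 to 0.26 for Solyc03g005770 (log2 difference -0.31) and from -1.06 to 0.17 for Solyc03g005780 (-0.44). The intervals of the 2 leading loci leave out a difference between the lines as large as that between af and either line.

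The gap between af and the lines was present in each collection. Log2 CPM in af was set beside the mean of the lines of the same collection. It was lower in 16 of 16 values (4 loci in 4 collections), which ran from -1.14 to -3.83. That direction follows from the separation of all af libraries below all line libraries, which held for 8.68% of all tested genes. It is therefore no further result, and only the sizes of the gap by collection add to it. For Solyc03g005760 the differences in collections 1 to 4 were -1.14, -1.72, -2.30 and -1.61. For Solyc02g070940 they were -1.22, -1.33, -1.89 and -2.10. The narrowest gap of both leading loci was in collection 1. Solyc03g005770 had -1.32, -2.37, -2.58 and -1.93, and Solyc03g005780 had -2.79, -1.89, -3.83 and -3.27, with its narrowest gap in collection 2.

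**Figure D3:**
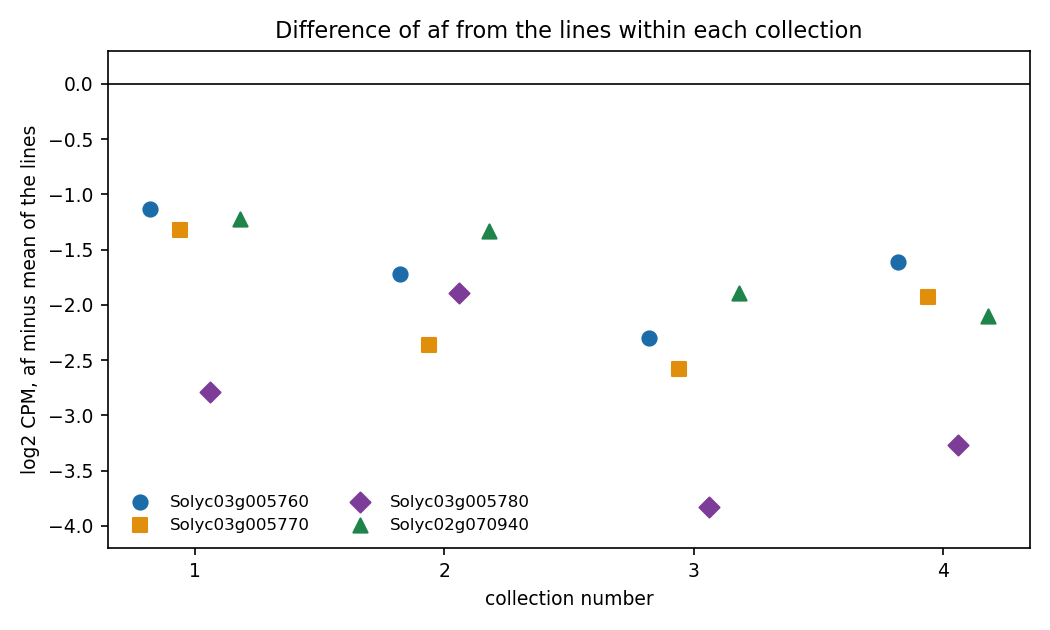
Difference of log2 CPM in af from the mean of the 2 lines of the same collection, against the collection number, for the 4 more abundant CAB loci. All 16 points lie below 0, which the separation of af from the lines at these loci requires. They lie between -1.14 and -3.83, and Solyc03g005780 is the lowest in collections 1, 3 and 4.

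Whether this gap differed between collections 3 and 4 and collections 1 and 2 was tested as an interaction. The log2 change of the gap was -0.53 for Solyc03g005760 (SE 0.285), -0.45 for Solyc03g005770 (SE 0.497), -1.30 for Solyc03g005780 (SE 0.470) and -0.73 for Solyc02g070940 (SE 0.275). Thus all 4 fitted gaps were wider in the later-numbered collections, beside a median change of -0.03 over all tested genes. The 4 loci were read in the same libraries, so they are not 4 independent observations. Of the 7 tested members 0 passed in edgeR (adjusted p of 1.00 for each of the 4), and 0 passed in DESeq2. At an unadjusted p under 0.05 there were 2, Solyc03g005780 with 0.0140 and Solyc02g070940 with 0.0180. Of all tested genes 0% were called, and 505 of 18326 had an unadjusted p under 0.05. On simulated counts the interaction test recovered 4.26% of changes of 1 on the log2 scale and 44.9% of changes of 2. The changed genes were drawn from all tested genes, scarce ones included, so these shares do not give the recovery for the 4 loci.

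The collections were also compared over the 3 genotypes together. Of the 7 members, 0 were called by edgeR for any difference among the 4 collections, where 1.93% of all tested genes were. By DESeq2 the count was also 0, and unadjusted edgeR p-values under 0.05 numbered 0. The edgeR adjusted p was 0.341 for Solyc03g005760 and 0.430 for Solyc02g070940. Mean levels of Solyc03g005760 were 236, 226, 198 and 189 CPM in collections 1 to 4, and those of Solyc02g070940 were 222, 272, 247 and 322 CPM. Collections 3 and 4 against 1 and 2 also gave 0 called members in edgeR and in DESeq2, with 0.971% of all tested genes called. The log2 difference was -0.36 for Solyc03g005760 (SE 0.129, edgeR adjusted p = 0.190, unadjusted p = 0.0116) and 0.06 for Solyc02g070940 (SE 0.120, edgeR adjusted p = 0.875). It was 0.04 for Solyc03g005770 and 0.11 for Solyc03g005780. The scarce loci had larger differences with wide 95% intervals, 2.95 (-0.44 to 6.35) for Solyc02g070990, 2.08 (-0.87 to 5.04) for Solyc02g070950 and 0.64 (-0.82 to 2.09) for Solyc02g071010. These tests compare 4 particular collections, each holding 1 library per genotype.

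The balance between the leading loci can be read within a library, free of any scaling. Counts of Solyc03g005760 for each count of Solyc02g070940 were 1.12, 0.656, 0.621 and 0.789 in af replicates 1 to 4. They were 1.18, 0.782, 0.788 and 0.477 in CHI4 and 0.946, 0.944, 0.862 and 0.663 in CHI9. The ratio was highest in collection 1 in each genotype and lowest in collection 4 in both lines, while the genotypes overlapped. Its mean was 0.796 ± 0.227 in the 4 af libraries and 0.830 ± 0.208 (SD) over the 8 line libraries.

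The smaller loci of chromosome 3 did not keep a fixed proportion to the leading one. Counts of Solyc03g005780 were 1.95%, 6.13%, 3.67% and 3.26% of those of Solyc03g005760 in af replicates 1 to 4. They were 7.90%, 7.05%, 11.6% and 15.9% in CHI4 and 4.72%, 6.77%, 9.72% and 6.62% in CHI9. In each collection af was below both lines, but af replicate 2 lay above CHI9 replicate 1. Solyc03g005770 was at 3.37% to 5.70% of the leading locus in af and at 2.83% to 8.23% in the lines, which overlapped. These ratios are descriptions, chosen after the levels were seen, and were not tested.

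**Figure D4:**
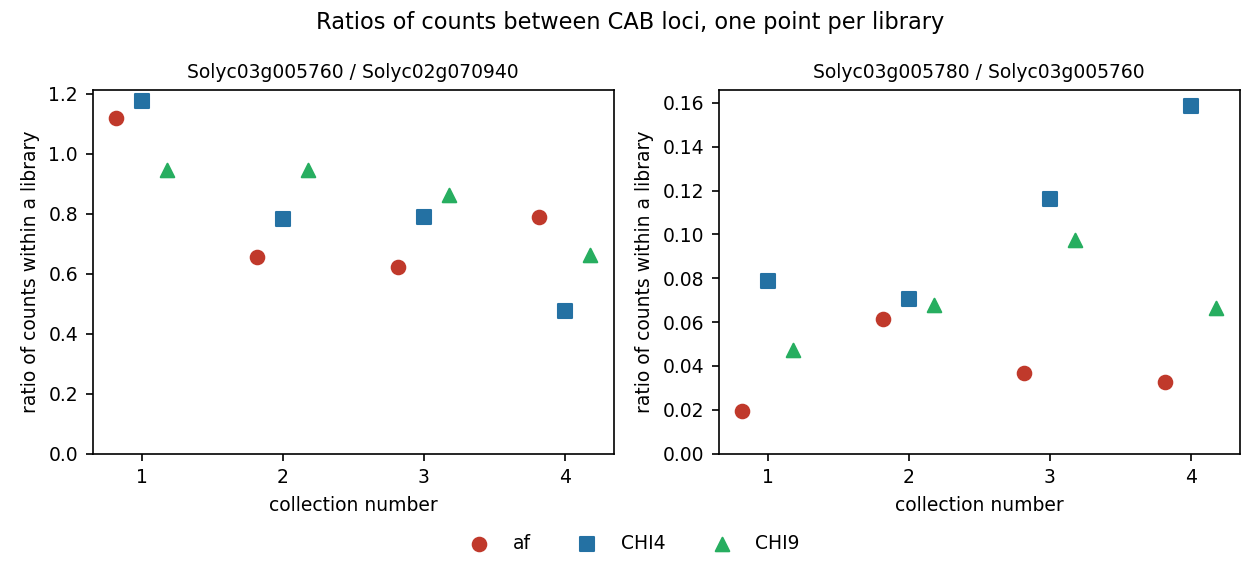
Ratio of counts between CAB loci within each library against the collection number, on linear axes from 0 (circles af, squares CHI4, triangles CHI9). In the left panel Solyc03g005760 over Solyc02g070940 is highest in collection 1, and in the right panel Solyc03g005780 over Solyc03g005760 is lowest in af within each collection.

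Together the 10 members took 0.0164% to 0.0324% of all gene counts in af and 0.0527% to 0.0663% in the lines, unscaled. The chromosome 3 loci took 0.0118% ± 0.00454 (SD, n = 4) in af, against 0.0283% ± 0.00311 (SD, n = 8) for the lines. For the chromosome 2 loci the shares were 0.0137% ± 0.00336 and 0.0314% ± 0.00562 (SD, same n). With each cluster summed to 1 feature before the fit, the log2 difference of af from the lines was -1.71 (SE 0.180) for chromosome 3 and -1.63 (SE 0.169) for chromosome 2. That is close to the values of the leading loci, which make up most of each sum. Sums over members are given as descriptions without a test.

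Among the 22 loci that lie within 5 places in the table of the clusters or between their members, 16 were tested, and 5 fell and 0 rose in af, beside 13.6% lower and 12.9% higher of all tested genes. Their median log2 difference was -0.55, against 0.07 for all tested genes and -1.63 for the 7 tested members. Solyc02g071060, the neighbour with the largest called difference, fell by 1.89 on the log2 scale (SE 0.307, edgeR adjusted p = 0.000129), and Solyc03g005820 fell by 1.15 on that scale (SE 0.201, edgeR adjusted p = 0.000319). Between the CAB loci of chromosome 2 lie Solyc02g070960, with 0 counts in all libraries, and Solyc02g071000, at a mean of 0.166 CPM.

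By likeness of profile, the leading loci were not each other's nearest genes. Likeness was taken as the root mean square difference of centred log2(CPM + 0.5) over the 12 libraries, among genes averaging at least 5 CPM. Nearest to the chromosome 3 sum was Solyc12g008770, at 0.215 among 11781 genes compared, and nearest to the chromosome 2 sum was Solyc05g009030, at 0.220 among 11783. Solyc03g005760 was at 0.355 from Solyc02g070940, which ranked 63 in its list, and Solyc02g070940 found Solyc03g005760 at rank 88. For Solyc03g005780 the nearest member was Solyc03g005770, at 0.596 and rank 65.

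Other loci of photosynthesis were set beside the members from lists recorded from general knowledge, with no annotation to check the locus numbers. Of 19 loci listed as other light-harvesting proteins 14 were tested, and 10 fell and 0 rose in af, with a median log2 difference of -1.01. The differences of these 14 loci ran from -2.78 to 0.22, so they overlapped with those of the 4 called members. The list summed to 967 to 1266 CPM in af and 1977 to 2648 CPM in the lines. Of 19 listed photosystem subunits, which carry out the light reactions, all 19 were tested, and 14 fell and 0 rose, with a median of -0.72. Of 11 tested loci of carbon fixation, which uses the products of the light reactions, 9 fell and 0 rose, with a median of -0.89. Of 12 tested loci of chlorophyll synthesis 5 fell and 0 rose, with a median of -0.42, and the list's summed levels overlapped, at 905 to 1655 CPM in af and 1134 to 1864 CPM in the lines. Over all tested genes 13.6% fell and 12.9% rose, and the median was 0.07. The 1 tested locus of 3 listed as regulators of greening rose in af by 0.90 on the log2 scale (SE 0.267, edgeR adjusted p = 0.0206). Against CHI4 alone it was not called (log2 difference 0.76). The summed levels of this list overlapped, at 14.6 to 63.2 CPM in af and 17.1 to 30.3 CPM in the lines.

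**Figure D5:**
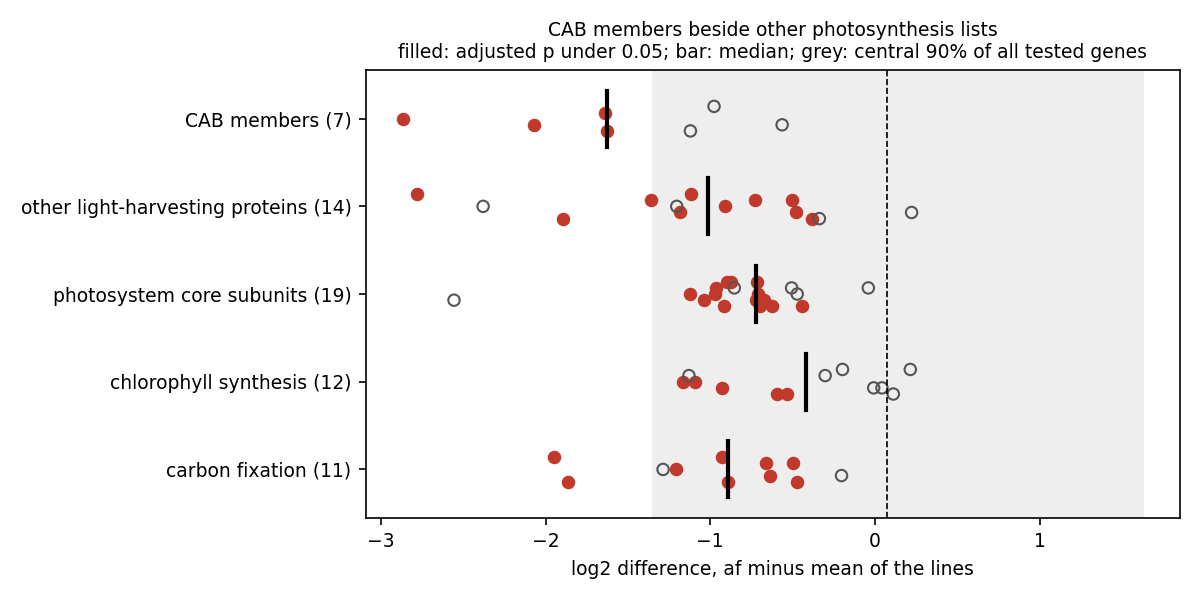
Log2 difference of af from the mean of the lines for the tested CAB members and for lists of other photosynthesis loci recorded from general knowledge, 1 point per locus. Filled points passed an adjusted p under 0.05, bars are medians, the grey band spans the 5th to 95th percentile of all tested genes (-1.35 to 1.63) and the dashed line their median of 0.07. The 4 called members lie outside the band on the lower side. Most loci of the other lists lie within it, but some called ones lie below it as well. Among these are Solyc05g056050 (-2.78) and Solyc07g047850 (-1.89) of the light-harvesting list. Solyc02g086820 (-1.95) and Solyc02g063150 (-1.86) are examples from carbon fixation.

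Several library-wide values moved with the genotype as well. TMM factors ranged between 1.10 and 1.28 for af libraries and between 0.853 and 0.988 for line libraries. The summed type VI gland list and the carbon fixation list were both lower in af. The latter was recorded to stand for green leaf cells, but gland cells hold chloroplasts too, so it cannot tell these cells apart. The carbon fixation list summed to 779 to 1037 CPM in af and 1200 to 1648 CPM in the lines, with 0 of its 12 loci at 0 in all libraries. The acylsugar list had 2 of 4 tested loci called lower. The part of these in the CAB values was not tested. Without 3 libraries that stand apart (CHI9 replicate 2 for its depth, af replicate 4 and CHI4 replicate 4 for lanes that differed over genes), left out together after the data were seen, the 4 members were still called lower in af.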

How the data were processed

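The authors deposited counts per gene model, 1 table per sequencing lane, 24 tables for 12 libraries, made with Trimmomatic, TopHat2, SAMtools and HTSeq per the submitters' processing notes. The sources used here do not give the build, annotation, versions, options or strand setting. Therefore reads of overlapping or antisense genes cannot be told apart. The lanes of a library were summed and 5 summary entries that name no gene were left out. They made up 19.3% to 23.5% of all entries.

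Counts were fitted in R 4.3.3 with edgeR 4.0.16 (filterByExpr, TMM, robust quasi-likelihood), which kept 18326 of 24536 genes with a count. Genotype comparisons used 3 genotype means without a block, collection tests used genotype and collection terms, and the interaction used 6 means. Adjusted p-values are Benjamini-Hochberg over all tested genes, with a threshold of 0.05. SE is the log2 difference over the root of F. Alternatives were DESeq2 1.42.0, other scaling and filters, single lanes, halved counts, a block, summed clusters and leaving out libraries. The fits were tested on simulated data.

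The collection number pairs libraries because the labels mark a shared sampling time. Deviations from genotype means had correlations of -0.00927 to 0.284 in the 12 same-collection pairs, 8 of them over 0.1. In the 36 pairs from different collections the correlations ran from -0.192 to 0.0908, with 0 of them over 0.1.

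Members, lists and the rule for named genes (all members, the nearest profile of each cluster, up to 2 called neighbours, the af locus) were chosen with earlier results of these data known. Of 34725 locus numbers 0 matched the reference table.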

Additional observations from a re-analysis of the deposited data

Results flagged for a closer look

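Dixon's test at the 95% level looked for a library far from the other 3 of its genotype. It flagged 11 of the 36 sets of 4 values looked at. The usual chance rate of about 1 in 20 is for independent sets with a normal spread. A set with 0 in all other libraries is flagged whatever the count, and the chromosome 3 share repeats Solyc03g005760. Therefore 11 of 36 cannot be set against that rate. Of the 11 flagged sets, 7 are of scarce loci with 0 or few counts in the other libraries. Solyc03g005790 had 0.300 CPM in af replicate 3 against 0 in the other af libraries. Solyc02g070970 had 0.0635 CPM in af replicate 2 against 0, 0.450 CPM in CHI4 replicate 4 against 0 to 0.0676, and 0.304 CPM in CHI9 replicate 3 against 0 to 0.0234. Solyc02g070980 had 0.0392 CPM in af replicate 4 against 0, a single count. Solyc02g070990 had 0.876 CPM in af replicate 3 against 0 to 0.0111, and 4.01 CPM in CHI9 replicate 2 against 0 to 0.655.

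Among the abundant loci, Solyc03g005760 had 321 CPM in CHI9 replicate 2 against 271 to 278 in the other CHI9 libraries, and with it the chromosome 3 share of gene counts was 0.0337% against 0.0280% to 0.0288%. This is the shallowest library. Solyc03g005770 had 4.46 CPM in af replicate 1 against 3.00 to 3.17, and Solyc03g005780 had 5.46 CPM in af replicate 2 against 2.01 to 2.59.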

How the results depend on the processing

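The 4 CAB loci called lower in af stayed called against the lines together and against each line under every alternative run. Against the lines together, log2 differences ran from -1.88 to -1.45 for Solyc03g005760, -2.23 to -1.99 for Solyc03g005770, -3.28 to -2.69 for Solyc03g005780 and -1.75 to -1.51 for Solyc02g070940. Against CHI9, 5 members were called without af replicate 3, with Solyc02g070990 (named after its value was seen). In the comparison of the lines and the collection tests 0 members were called under any of them.

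With the replicate block, 36 genes differed between the lines in place of 17, Solyc02g070950 turned to 0.23 in af against the lines (uncalled), and the block changed no member's call. DESeq2 called 92 genes between the lines. Without the block, 0 genes differed between collections 3 and 4 and collections 1 and 2, in place of 178. That count was 759 with no low-count filter and 660 in DESeq2. For any difference among collections (353) these settings gave 1402 and 1137, and for the change of the af effect (0) they gave 17 and 1. With TMM-scaled CPM in place of the unscaled share, the log2 ratio of af over the lines for chromosome 2 was -1.63 in place of -1.19. For chromosome 3 it was -1.71 in place of -1.27.

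Without the 3 libraries that stand apart, called genes numbered 7 between the lines, 2389 against CHI4 (3637 with all) and 2231 against CHI9 (3750), of which 1357 were lower (2127). The log2 difference between the lines turned to 0.127 for Solyc02g070940 and -0.0239 for Solyc03g005760, and Solyc02g070990 turned to 0.402 in af, all uncalled. Fewer libraries entered those fits. For the other settings the cause was not tested.

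Leaving out 1 library at a time gave 9 to 16 genes between the lines, 26 (without CHI9 replicate 4) to 736 (without CHI4 replicate 1) for collections 3 and 4 against 1 and 2, and 156 (without CHI9 replicate 3) to 723 (without CHI4 replicate 1) for any difference among collections. The uncalled log2 difference of Solyc02g070940 between the lines ran from -0.148 to 0.127. Between the collection pairs, Solyc02g070940 ran from -0.0143 to 0.167, Solyc03g005770 from -0.139 to 0.206 and Solyc03g005780 from -0.102 to 0.339, also uncalled. The 6 scarce loci rest on few counts. With all counts halved, Solyc02g070950 and Solyc02g071010 kept their direction in af against the lines and stayed uncalled, while Solyc02g070990 was no longer tested. Halving keeps the ratios between libraries apart from rounding, so the kept direction is no check on few counts. Whether depth or the spread between libraries sets the intervals of the scarce loci was not tested.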
